A study of Drosophila melanogaster with 3 samples.

Results

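The binding sites described here are the peaks of CG10669 that lay inside exons and away from promoters. A reproducible peak was taken where its summit, the position of highest signal, fell in an annotated exon and more than 500 bp from every annotated transcription start site (TSS). Transposable elements were left out of the annotation. Of the reproducible peaks, 187 met this rule and the other 7061 did not, so that exonic peaks were 2.58% of all (95% Wilson interval 2.24 to 2.97%, counting error only). They comprised 54 peaks in 3′ UTRs, 43 in 5′ UTRs, 15 in coding exons and 75 in exons of non-coding RNA genes. The host genes of the last kind were 62 long non-coding RNA (lncRNA) genes and 1 antisense RNA gene.

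The data came from chromatin immunoprecipitation with sequencing (ChIP-seq) of 3 biological replicates of whole Drosophila melanogaster prepupae. All samples carried a transgene that stably expressed CG10669 fused to GFP at its C-terminus, and both sexes were pooled. There was no second genotype, stage or treatment, so the comparisons below are between peaks and between replicates. The label for age reads 24 days, which is not the age of a prepupa, and the antibody field names CG10669 and not GFP, so it is not known from the labels whether the untagged protein was recovered too. The description of each of the 3 samples calls it an input control, while the assay field and the peak lists are those of an immunoprecipitation. The libraries were treated as immunoprecipitates; in input libraries the signals would not measure CG10669 binding, and the files used here do not settle this. The lists of all replicates were called against the same control file, and sequencing depth was unknown.

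ChIP-seq recovers DNA fragments that a protein touches, so a peak in an exon marks a place on the chromosome and not binding to the transcript. A UTR is the part of a messenger RNA outside the reading frame, and in the gene it can be interrupted by introns or be used by only some transcripts. lncRNA genes produce transcripts without a known protein, and some of them are the primary transcripts from which microRNAs are cut. The prepupa is an early stage of metamorphosis, which is driven by pulses of the steroid hormone ecdysone.

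The sequence at the summits differed between the kinds of exon. The following are the 30 bases centred on the summit for the 3 peaks of highest signal in each kind of exon, outside the chromosome arm whose sequence is not printed. They are read 5′ to 3′ on the plus strand of the Release 6 genome (dm6, RefSeq), and capitals mark runs of 5 or more bases that are only A or T. They are shown because base composition at the summit is the feature in which the kinds of exon differed.
baz, 5′ UTR, chrX:17178684-17178713: tgTTAATTTAgttatgTTTTTgTATATAca
cbt, 5′ UTR, chr2L:479139-479168: ttcagctgcggcctctcgctcgcactcaca
Nup153, 5′ UTR, chrX:16599986-16600015: actagctcgcaggaattgcaacagtgtgtg
Pde1c, coding exon, chr2L:11816566-11816595: cagcgccatctgccggctccgcagctggct
toc, coding exon, chr2L:3124535-3124564: ATTTTggggATTTTggcgatttcaaaacgc
CG5895, coding exon, chr3L:16037139-16037168: ttggAAATATTTAATTTgtactgaattgta
Lsd-2, 3′ UTR, chrX:15069504-15069533: atcaaaggatgacacgccccttacgccgaa
APC7, 3′ UTR, chrX:6599464-6599493: catacaacaatagtccTTTATcatccattg
Ance-3, 3′ UTR, chr2L:13955916-13955945: gtagattcagacacctactcgaaacATTAA
lncRNA:Vinr, non-coding exon, chrX:12751302-12751331: gAAATTTTgAAATATAAATTTTgATATATg
lncRNA:CR44619, non-coding exon, chrX:12752359-12752388: tttgaagAAAATAcAAAAAAATATcgcaca
lncRNA:CR46035, non-coding exon, chr3R:17704394-17704423: TTATTgtttctgatcaagtcactcatcaaa
The stretches at lncRNA:Vinr and lncRNA:CR44619 were mostly A and T, with 4 and 7 bases of G or C among 30. The stretches at cbt, Nup153, Pde1c and Lsd-2 had no A/T run of 5 bases. Over all 187 exonic summits, 126 (67.4%) held such a run in their 30 bases, against 78.7% of all reproducible summits. The run was present at 57 of 75 summits in non-coding exons (76.0%) and 42 of 54 in 3′ UTRs (77.8%). It was present at 23 of 43 in 5′ UTRs (53.5%) and 4 of 15 in coding exons (26.7%). Such runs are common away from summits too. In windows 500 bp away the shares were 56.7% for non-coding exons, 58.3% for 3′ UTRs, 65.1% for 5′ UTRs and 43.3% for coding exons.

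The exonic peaks of highest signal lay in lncRNA genes. Signal is given relative to the median of the 30000 candidates in its list, because each list has its own scale. The summit in lncRNA:Vinr (FBgn0287633, X:12750818-12751652) ranked 9 among all pooled candidates and had relative signals of 71.5, 41.4 and 41.7 in replicates 1, 2 and 3. It was highest in replicate 1, and the mean was 51.5 ± 17.3 (SD, n = 3). The first summit in the neighbouring lncRNA:CR44619, of rank 17, had 53.7, 40.7 and 45.6, with a mean of 46.7 ± 6.56 (SD, n = 3). The summit in lncRNA:CR46035, of rank 19, had 50.2, 39.5 and 47.5, with a mean of 45.7 ± 5.57 (SD, n = 3). These 3 peaks overlapped one another in replicate values, so their order is not resolved, and the lowest value of any of them was above every value of the other 17 peaks of the 20 strongest that every replicate held. lncRNA:CR46035 lies antisense inside osa, which encodes a subunit of the Brahma chromatin remodelling complex. All 3 summits lay fairly close to a lncRNA start, at 550, 507 and 714 bp, and would not pass a TSS distance of 1000 bp.

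**Figure D1:**
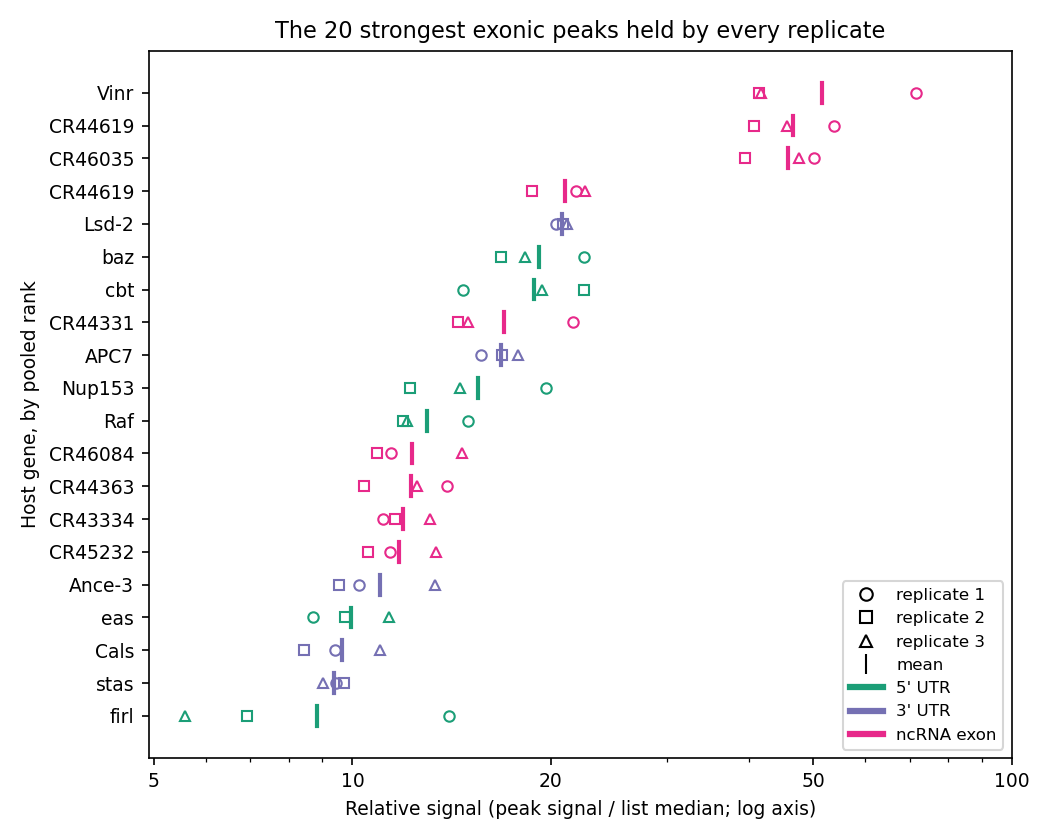
Relative signal (peak signal over the median of its list, log axis) of the 20 exonic peaks of highest pooled signal that had a summit within 200 bp in each replicate. Open symbols are replicates 1 to 3, vertical ticks are their means and colours give the kind of exon; the 3 uppermost lncRNA peaks sit at 39.5 or more in each replicate, and the others at 22.5 or less.

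The lncRNA pair on X held a cluster of summits. Between CG4004 and Paics, an enzyme gene of purine synthesis, the reproducible list had 7 summits along the 2 lncRNA genes and just beyond. lncRNA:Vinr held 2 of them and lncRNA:CR44619 held 3. The summit near the 3′ end of lncRNA:CR44619, at X:12754520, had relative signals of 21.8, 18.7 and 22.5. The 2 weaker members were at X:12750396 in lncRNA:Vinr, with 3.55 ± 1.14 (SD, n = 3), and at X:12753934 in lncRNA:CR44619, with 3.21 ± 0.298 (SD, n = 3). Beyond the end of lncRNA:CR44619, pooled summits with relative signals of 17.5 and 6.58 followed at 4076 and 4750 bp from the strongest one. The 3′ UTR of CG4004, on the other side, held a further exonic summit at X:12748570 with a pooled relative signal of 3.95. The 5 cluster members share 2 host genes and are not independent sites.

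**Figure D2:**
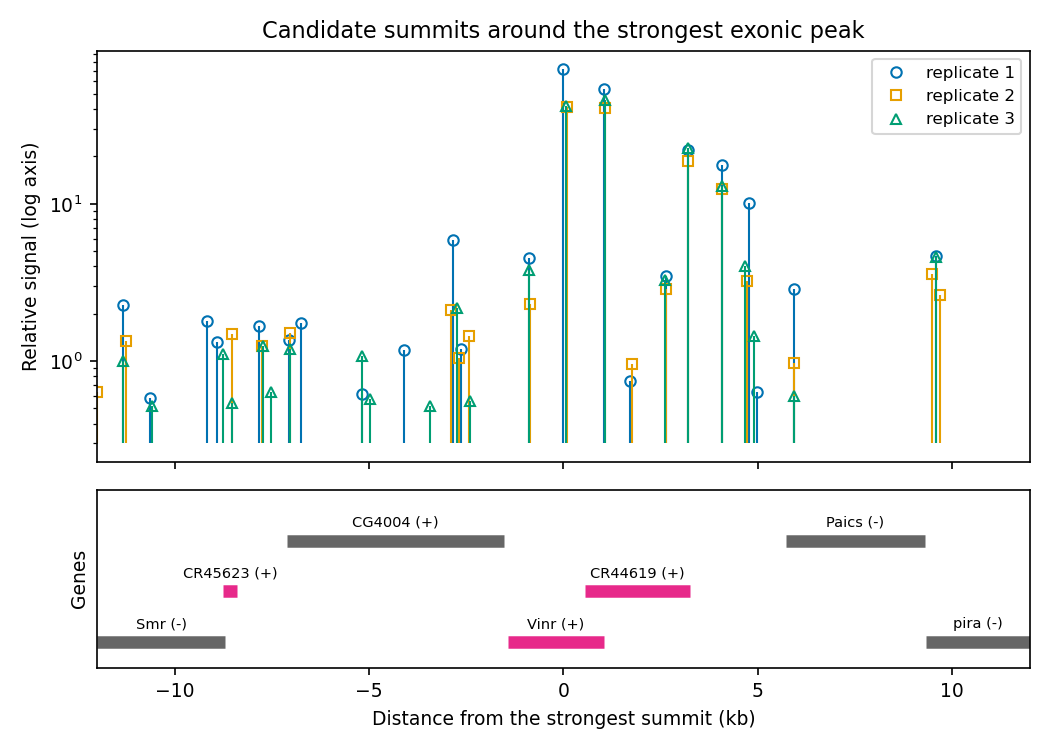
Candidate summits of each replicate within 12 kb of the strongest exonic summit, with distance in kb on the x axis and relative signal on a log axis; bars below are the annotated genes with their strand (pink, non-coding; grey, protein-coding). In all 3 replicates the highest summits lie over Vinr (up to 71.5) and over the start (up to 53.7) and end (up to 22.5) of CR44619.

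The 5′ UTR peaks of highest pooled signal were in baz, cbt, Nup153, Raf and Fbl6. The peak in baz, which encodes the polarity scaffold Bazooka (Par-3), had relative signals of 22.5, 16.8 and 18.3. The peak in cbt, the gene of the zinc finger transcription factor Cabut, had 14.7, 22.5 and 19.4, so its order against baz changed between replicates. The peak in Nup153, a nuclear pore gene, had 19.7, 12.2 and 14.6, with a mean of 15.5 ± 3.82 (SD, n = 3). Raf, which encodes the kinase that activates the MAP kinase cascade, had 14.97, 11.9 and 12.1. The peak in eas, the ethanolamine kinase gene, reached 9.96 ± 1.34 (SD, n = 3). The peak in firl had 14.03, 6.93 and 5.58, and its value in replicate 1 stood above the other two. The summit in Fbl6, an F-box gene, had 11.1 and 13.9 in replicates 2 and 3 and no candidate within 200 bp in replicate 1.

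In 3′ UTRs the strongest peak was at Lsd-2, which encodes a perilipin of lipid droplets. Its relative signals of 20.3, 20.8 and 21.2 were close to each other, with a mean of 20.8 ± 0.424 (SD, n = 3). Lsd-2 held 2 more exonic summits on X, at 15069739 and 15071015, with means of 4.76 ± 2.21 and 3.996 ± 0.721 (each SD, n = 3). The first of these shared its peak interval with the strongest summit. At each of these summits 1 of 5 annotated Lsd-2 transcripts was exonic. The peak in APC7, a subunit gene of the anaphase-promoting complex, had 15.7, 16.9 and 17.8. Ance-3, of the angiotensin-converting enzyme family, had 11.0 ± 2.02, and Cals, the calsyntenin gene on chromosome 4, had 9.63 ± 1.303 (each SD, n = 3). Cals was the only exonic peak on chromosome 4. The peak in stas had 9.39 ± 0.338 (SD, n = 3). CG7872 had 9.20 and 16.6 in replicates 2 and 3 and no candidate in replicate 1. The same held for by, which encodes the adhesion protein tensin, with 8.40 and 11.0.

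Coding exons held the fewest peaks. The strongest was in otp, a homeobox gene, on 2R, of pooled rank 1545, with relative signals of 5.87, 6.32 and 9.15 and a mean of 7.11 ± 1.78 (SD, n = 3). Pde1c, a cyclic nucleotide phosphodiesterase gene, had 6.43 ± 1.87, and toc, which encodes the microtubule-associated protein Toucan, had 6.03 ± 1.74 (each SD, n = 3). CG5895 had 2.60, 5.30 and 7.72, a range wider than that between the means of the 4 strongest. Next were Ubr1, a ubiquitin ligase gene, with 3.53 ± 1.46, and bif, which encodes the actin-associated protein Bifocal, with 3.38 ± 0.607 (each SD, n = 3). l(3)mbn, Dlic (a dynein light intermediate chain), Dph4 (diphthamide synthesis), sgg, CG1632 and Pvf3 (a ligand of the PDGF and VEGF receptor family) had means between 2.39 and 2.90. mlt, Tsp42Ee (a tetraspanin) and CG10357 had means of 2.14, 1.90 and 1.75. Of the 15 coding-exon peaks, 8 were recovered in every replicate, and those of Pvf3 and CG10357 in 1 replicate each.

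Across the kinds of exon, non-coding exons had the highest typical signal. The median relative signal over their peaks was 4.16 ± 0.205 in the replicates, against 3.23 ± 0.123 for 3′ UTRs, 2.92 ± 0.223 for 5′ UTRs and 2.87 ± 0.394 for coding exons (each SD over replicates, n = 3). The non-coding value was the highest among the kinds of exon in each replicate, while 5′ UTRs and coding exons overlapped. Outside exons, the level was not unusual. In the pooled list the median was 4.915 for non-coding exons, 4.98 for promoter peaks and 4.18 for intronic peaks. Taken as one group, the 187 peaks had a median signal below that of all other reproducible peaks, by a log2 ratio of −0.15 ± 0.096 (SD, n = 3; exact two-sided sign-flip permutation test over replicates, p = 0.25). The log2 ratio was −0.10 without replicate 1, −0.08 from the mean of log2 signal and −0.01 ± 0.073 among peaks in the upper part of the pooled signal, where the difference was within the replicate spread. With 3 replicates this test cannot give less than 0.25, so no comparison here could pass 0.05. Over the 29 such tests run, the Benjamini-Hochberg adjusted values ranged from 0.279 to 0.750. The log2 ratio was −0.34 ± 0.17 against promoter peaks and negative in 3 of 3 replicates. Against intergenic peaks it was −0.03 ± 0.091 and changed sign between replicates.

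The share of exonic peaks recovered in the replicates was close to that of all peaks. A peak was called recovered where a replicate's strong candidates, its own list of highest signal made as long as the reproducible list, had a summit within 200 bp. Of the 187 exonic peaks, 118 (63.1%, Wilson interval 56.0 to 69.7%) were recovered in all 3 replicates, against 66.7% of all reproducible peaks. A further 43 were recovered in 2 replicates, 25 in 1 and 1 in none. The exception was the 3′ UTR peak of CG15546, with relative signals of 1.73, 1.32 and 2.05. By kind of exon, 54 of 75 peaks in non-coding exons, 31 of 54 in 3′ UTRs, 25 of 43 in 5′ UTRs and 8 of 15 in coding exons were recovered in all 3. In the full lists of 30000 candidates, 172 (92.0%) had a summit in each replicate, against 93.6% of all. Of the 187, replicate 1 lacked 12, replicate 2 lacked 2 and replicate 3 lacked 1. Over all reproducible peaks the numbers were 316, 75 and 89, so replicate 1 lacked the most there too. Among the strongest without a replicate 1 summit were Fbl6, CG7872, by and lncRNA:CR45030, the last with 7.36 and 11.8 in replicates 2 and 3, and CG9837 with 3.81 and 3.79.

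Exons were a small part of the strong candidates and a larger part of the weak ones. Of the 30000 pooled candidates, 24.2% were held in the reproducible list, but the share was 14.1% for exonic candidates. It was 21.6% in non-coding exons, 17.5% in 5′ UTRs, 13.4% in 3′ UTRs and 4.59% in coding exons, where 15 of 327 candidates were reproducible. Signal chose the reproducible list, so these shares describe signal. In the replicates' own lists, exonic summits were 2.72, 2.88 and 2.69% of the strong candidates and 5.48, 8.69 and 6.47% of the remainder. The strong share was the lower in each replicate, with a log2 ratio of −1.29 ± 0.29 (SD, n = 3; exact sign-flip permutation test, p = 0.25). Coding exons had the lowest ratio, −3.04 ± 0.47, with 14, 25 and 23 strong candidates against 273, 923 and 553 others. The ratio was −1.36 ± 0.21 in 3′ UTRs and −0.68 ± 0.11 in 5′ UTRs. In non-coding exons it was −0.24 ± 0.21, and its value in replicate 1 was −0.03. Promoters had a ratio of 0.66 ± 0.14.

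**Figure D3:**
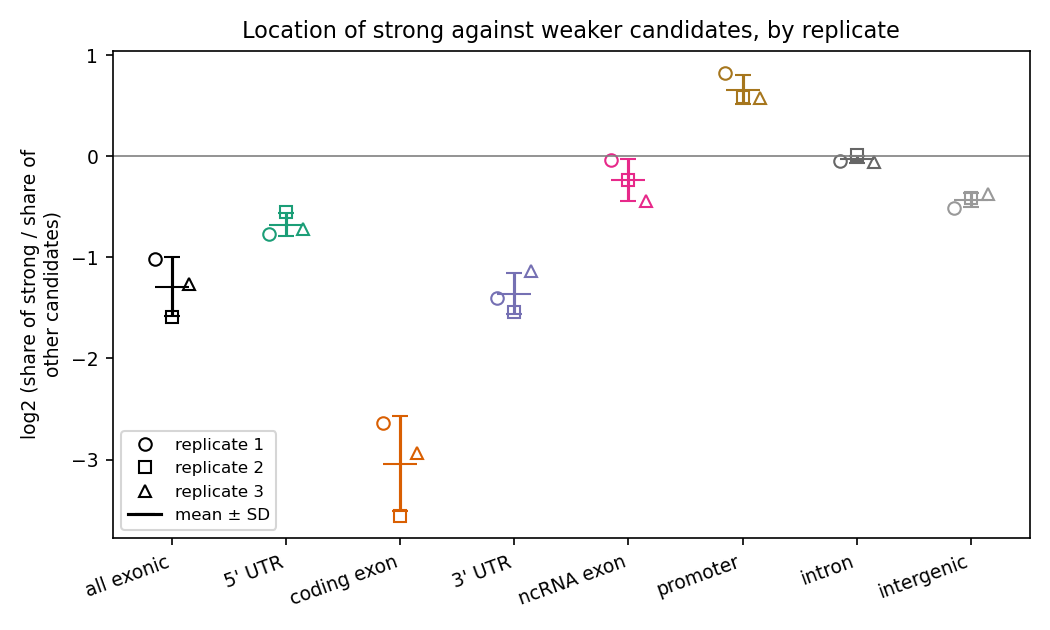
Log2 ratio of the share of each location among a replicate's strong candidates to its share among the remaining candidates; symbols are replicates, bars the mean ± SD (n = 3), and the grey line marks equal shares. Coding exons lie lowest, at −3.04 on average, 3′ UTRs at −1.36, and non-coding exons overlap the range of intergenic positions.

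By length of sequence, the non-coding exons stood above the other exons. Exons over 500 bp from a TSS made up 19.8% of the sequence and 2.58% of the reproducible peaks. Coding exons were 13.8% of the sequence and 0.207% of the peaks, and 3′ UTRs were 4.43% and 0.745%. The 2 shares were nearer in 5′ UTRs, at 0.779% of the sequence and 0.593% of the peaks. Non-coding exons were 0.797% of the sequence and 1.04% of the peaks (Wilson interval 0.826 to 1.295%). A peak share above the sequence share was not particular to them. Introns were 39.5% of the sequence and 47.3% of the peaks, and promoters 13.55% and 30.2%.

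Base composition at the summit separated the kinds of exon. GC content was taken in the 200 bp at the summit and in flanking windows 500 bp away. Summits in non-coding exons had 35.3% GC against 44.0% in their flanks, and 64 of 75 (85.3%) were lower than their flanks. So were 79.3% of all reproducible summits, 81.1% of intronic and 84.3% of intergenic ones. In 3′ UTRs the summit and flank values were 36.7% and 41.1%, with 35 of 54 lower. Summits in 5′ UTRs had 42.1% against 41.0%, and 18 of 43 were lower. In coding exons the summit was the richer, with 48.5% against 42.4%, and 5 of 15 were lower. At otp, Pde1c, Ubr1 and sgg the summit windows had 57.0, 63.5, 57.5 and 58.5% GC. Pde1c and Ubr1 had flanks of 37.3 and 33.3%. In 3′ UTRs, 19 of 54 summits were richer than their flanks, among them Lsd-2, with 54.0% against 35.8%, and Ppa, an F-box gene, with 53.0% against 41.0%. Among 5′ UTR summits, cbt had 55.5% GC and baz 27.5%.

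The replicates' own strong exonic candidates gave the same order of the kinds of exon. The pooled list was made from the same replicates, so this order is not independent of it. The difference of summit from flank GC was −8.64 ± 1.35 percentage points in non-coding exons, −3.77 ± 1.46 in 3′ UTRs, 0.17 ± 1.93 in 5′ UTRs and 8.17 ± 2.25 in coding exons (each SD, n = 3). The 5′ UTR value changed sign between replicates. Candidates of lower signal had −0.96 ± 1.485 points in non-coding exons and −2.14 ± 1.88 in 3′ UTRs (each SD, n = 3). They had 1.62 ± 1.87 in 5′ UTRs and 7.72 ± 1.935 in coding exons, the last near the value of strong candidates (each SD, n = 3). Strong intronic candidates had −7.19 ± 1.40. Relative to them, summits in non-coding exons were lower by −1.44 ± 0.36 points, while those in 3′ UTRs were higher by 3.43 ± 0.56, in 5′ UTRs by 7.36 ± 0.80 and in coding exons by 15.4 ± 1.13. Each of these 4 differences had the same sign in 3 of 3 replicates (exact sign-flip permutation test, p = 0.25 each, the smallest possible). All exonic candidates together differed from their flanks by −5.94, −2.79 and −1.74 points in replicates 1, 2 and 3, with a mean of −3.49 ± 2.19, and the mean was −2.26 without replicate 1 and −1.54 with 400 bp windows.

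Exons differ in GC content without any peak, and that part was measured from windows every 50 bp along all exons of each kind. Coding exons had a mean of 51.8% GC and 5′ UTRs 45.0%, both above their peaks. Windows of these classes were also richer than their own flanks, by 4.62 points in coding exons and 1.91 in 5′ UTRs. 3′ UTRs had 35.9%, against 36.7% at their peaks, and 26 of 54 peaks were below the mean of their class. Non-coding exons had 41.9%, against 35.3% at their peaks, and 62 of 75 peaks were below it. In non-coding exons the GC dip at the summit was therefore larger than that of the exon class. This was not particular to them. Below the mean of their own class were 82.7% of peaks in non-coding exons, 81.4% of intronic and 86.5% of intergenic peaks. The dip in 3′ UTRs was about the size of the class value. Class windows there differed from their own flanks by −4.55 points.

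**Figure D4:**
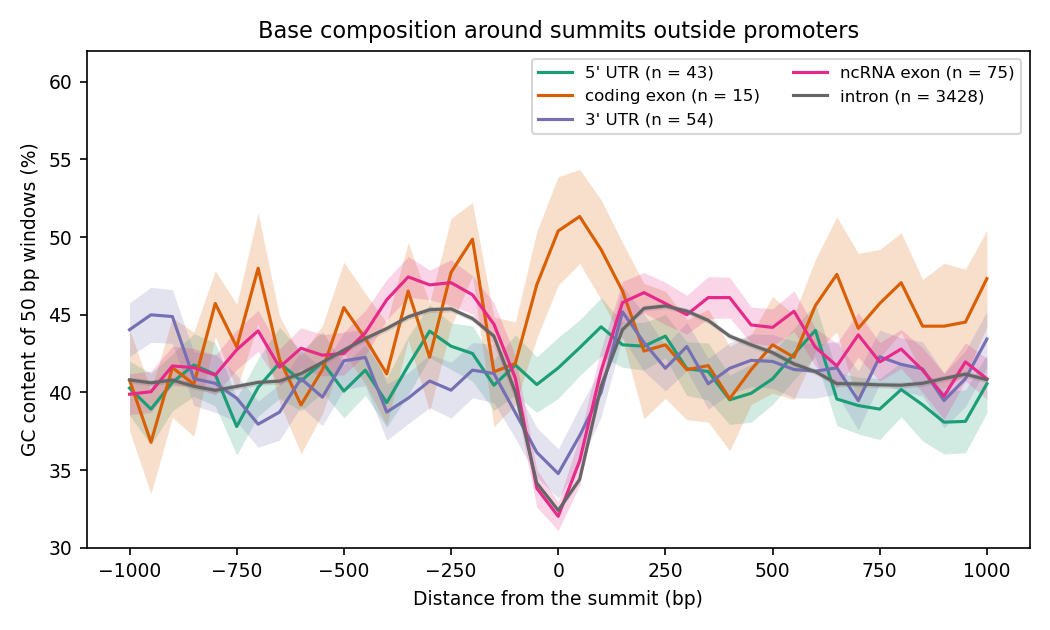
Mean GC content of 50 bp windows from 1000 bp before to 1000 bp after the summits of reproducible peaks outside promoters, by location; shading is the standard error over peaks, which are not biological replicates. Non-coding exons follow the dip of introns to nearly the same depth, 3′ UTRs dip less, 5′ UTRs stay flat and coding exons rise at the summit.

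Short words at the summits were counted in the same 200 bp windows on both strands. The 3 words of 7 letters with the largest excess at non-exonic reproducible summits over their flanks were AAAATAT, then AAAAATA, and last AAAAAAT, which overlap in sequence. At least 1 of them occurred at 79 of 187 exonic summits (42.3%), against 33.2% of their flanks and 51.6% of all reproducible summits. AAAAAAA was found at 44.4% of 3′ UTR and 41.9% of 5′ UTR summits, against 28.5% of all and 22.0% and 16.6% of windows along the same exon classes. AATAAA, the letters of the usual polyadenylation signal, occurred at 37.0% of 3′ UTR summits and 45.3% of 3′ UTR windows in general. GAGAG, the core letters of the GAGA factor motif, occurred at 24 of 43 summits in 5′ UTRs (55.8%), against 26.7% of their flanks, 26.0% of windows along 5′ UTRs and 23.5% of all reproducible summits. TATCGATA, the letters of the DREF element, was found in 0 of the 187 windows, which allows a share of up to 1.60%, and in 0.938% of all reproducible summits. A match of letters is a description and not a binding site, and 15 such words were counted beside the 3 above.

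The GAGAG share was looked at in each replicate after its value had been seen. Strong 5′ UTR candidates held it in 52.6, 43.1 and 43.5% of windows, and the remaining 5′ UTR candidates in 31.5, 32.5 and 38.0%. The strong share was higher in 3 of 3 replicates, by 12.4 ± 7.95 percentage points (SD, n = 3; exact sign-flip permutation test, p = 0.25), and by 8.08 points without replicate 1. The strong and the weaker shares did not overlap, with 38, 51 and 46 strong candidates behind them. As the word was picked from many, this is a description.

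The exonic peaks fell on X more often than other peaks did, a pattern also chosen after it was seen. X held 57 of 187 (30.5%), from 51 host genes, against 20.1% of the other reproducible peaks and 19.1% of the exonic sequence. In 3′ UTRs it held 20 of 54, among them Lsd-2 with 3 peaks, APC7, CG7872, stas, NetB (a netrin guidance ligand), Hr4, rst (a cell adhesion gene) and CtsB (cathepsin B). The other kinds had 11 of 43 in 5′ UTRs, 5 of 15 in coding exons and 21 of 75 in non-coding exons. Among each replicate's strong exonic candidates the X share was 30.5, 29.7 and 28.7%, and among its other strong candidates 19.6, 18.7 and 19.99%. The log2 ratio was 0.61 ± 0.075, and 0.31 ± 0.079 against strong intronic candidates, of which 23.8% lay on X (each SD, n = 3; exact sign-flip permutation test, p = 0.25). Exonic candidates of lower signal had 18.5% on X, and the log2 ratio to them was 0.69 ± 0.24. The X share of strong candidates was 41.3 ± 5.70% in 3′ UTRs, whose sequence lies to 23.5% on X. Males carry a single X, and in a pool of both sexes its copy number is below that of autosomes; its part in this share was not tested.

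**Figure D5:**
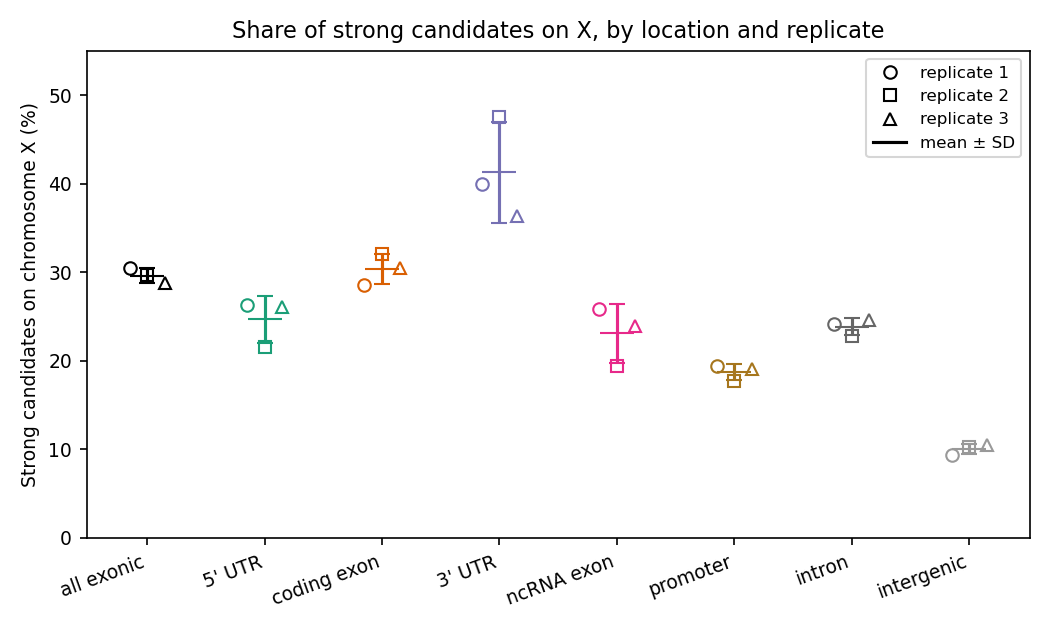
Percentage of each replicate's strong candidates on chromosome X, by location; symbols are replicates and bars the mean ± SD (n = 3). 3′ UTRs lie highest at 41.3% on average, exonic candidates together at 29.6%, introns at 23.8% and intergenic positions at 10.04%. 5′ UTRs at 24.7% and non-coding exons at 23.1% lie near introns.

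Many of the exons were long or optional parts of their genes. The median length of the exon under the summit was 1454 bp, and 117 of 187 lay in exons of at least 1000 bp. The summit was within 100 bp of an exon edge for 57. Where exon forms differed, both values were taken from the form that held the summit deepest. The same shares were not counted over all exon bases. The rule itself favours long exons, as they hold more sequence away from start sites. It was exonic in every annotated transcript of the host gene for 110 peaks, and for 65 it lay outside the exons of at least as many transcripts as held it. The latter were 33 of 54 in 3′ UTRs, 25 of 43 in 5′ UTRs, 4 of 75 in non-coding exons and 3 of 15 in coding exons. A host with 1 annotated transcript cannot give such a case. Such hosts lay under 50 of the peaks in non-coding exons, 8 in 3′ UTRs, 2 in 5′ UTRs and 1 in coding exons. The low count in non-coding exons is therefore largely set by the annotation. The transcript counts were not made over all exon bases either, so they do not set these peaks apart from exons in general. For eas it was exonic in 2 of 8 transcripts, for EcR in 2 of 6 and for toc in 1 of 10, so these summits lie outside the exons of the other transcripts. The median distance to the nearest TSS was 1172 bp, and 82 peaks were within 1000 bp. The largest distance, 16801 bp, was at the 3′ UTR summit shared by CG12535 and Myc, the growth-regulating transcription factor gene. Of the peaks in non-coding exons, 30 of 75 (40.0%) lay within 200 bp of a transcript end, against 25.0% of the bases of such exons. In 3′ UTRs the share was 26 of 54 (48.1%), against 41.6% of bases. On either side of the distance threshold, the 34 members up to 100 bp beyond it had a median relative signal of 3.70, and the 38 exonic summits up to 100 bp inside it had 4.197. On the signal side, the 5 weakest members had 2.23 to 2.26 and the 5 exonic candidates below them 2.18 to 2.22.

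The 187 peaks had 171 host genes, or 1.16% of the 14725 genes with exon sequence over 500 bp from every TSS. By gene type, 108 of 13044 protein-coding genes (0.828%) and 63 of 1525 non-coding RNA genes (4.13%) were hosts. Of 8 lists of developmental and RNA-related genes, 3 held any host. Among 20 ecdysone response genes these were EcR, the ecdysone receptor, with 3.59 ± 0.133 (SD, n = 3) in a 5′ UTR, and Hr4, an orphan nuclear receptor, with 2.98 and 4.14 in replicates 2 and 3 in a 3′ UTR. In the list of Wnt, Hedgehog and Dpp signalling, with 30 genes, they were sgg, the GSK-3 kinase, with 2.49 ± 0.670 in a coding exon, and tkv, a Dpp receptor, with 1.94 ± 0.861 in a 5′ UTR (each SD, n = 3). Raf was the host among 18 EGF receptor and MAP kinase genes. There was none among 21 Notch pathway, 11 Hox, 22 Polycomb and Trithorax, 27 RNA-binding and 23 cytoskeleton and adhesion genes. The lists are short and leave out related hosts, such as by, rst, bif, toc and the RNA-binding gene spen, so a count of 0 concerns the listed genes alone. These counts are too small to set a list apart from the 1.16% of all genes.

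Several lncRNA hosts carry microRNA genes, which was looked at after the hosts had been seen. Of 34 eligible lncRNA and antisense RNA genes that contain a microRNA gene on the same strand, 5 (14.7%) hosted 12 peaks. Of the other 1483, 58 (3.91%) were hosts. lncRNA:CR43334 contains mir-ban, the bantam microRNA that promotes growth, and held 5 summits in its exon of 15466 bp. The strongest, at 3L:640755, had relative signals of 11.1, 11.6 and 13.1, and was 1453 bp from the nearer end of mir-ban. The other 4 ranged in mean from 1.99 to 7.53 and reached 12217 bp from it. lncRNA:CR43650 contains mir-8, a member of the miR-200 family, and held 3 summits with means of 7.11 ± 1.40, 6.68 ± 1.00 and 5.52 ± 1.01 (each SD, n = 3), at 4986 to 7081 bp from it. lncRNA:CR46004 and lncRNA:CR46006 contain mir-276b and mir-276a and held 2 and 1 summits, with means from 2.94 to 3.31. lncRNA:CR43270, with mir-958, held 1 summit of 2.41 ± 0.575 (SD, n = 3). The microRNA genes themselves lay at least 1453 bp from these summits, and long host genes offer more exon sequence; the part of length was not tested.

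Non-coding exons also lay inside protein-coding genes. Of the 75 peaks in non-coding exons, 53 lay in no coding gene, 7 in one on the same strand and 15 antisense inside one. Besides osa, the antisense hosts included puc, which encodes the JNK phosphatase Puckered, where lncRNA:CR44331 had 21.6, 14.5 and 14.99. They also included the polarity gene scrib, where lncRNA:CR46084 had 12.3 ± 2.04, and kis, a chromatin remodeller of the CHD family, where lncRNA:CR44218 had 4.01 ± 0.695 (each SD, n = 3). At such positions the summit lies in both genes and cannot be assigned to either. lncRNA:CR44363 and lncRNA:CR45232, which lie in no coding gene, had 12.3 ± 1.77 and 11.8 ± 1.45 (each SD, n = 3). Another reproducible peak lay within 2000 bp for 82 of the 187 peaks and for 43 of the 75 in non-coding exons. The same count was not made over all reproducible peaks, so these numbers do not show more clustering than peaks have in general.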

How the data were processed

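Per the file headers, the authors called candidate peaks in each of the 3 ChIP-seq replicates and in their pooled alignments, all against a shared control file, and derived the reproducible list by the irreproducible discovery rate (IDR) in dm6. Which aligner, peak caller and cut-off they used is not stated in these sources. Signal values are deposited as the caller gave them against the control, on a scale of their own in each list, and each was divided here by the median signal of that list's 30000 candidates. The deposited −log10 q-value was tied at its maximum of 4.24 over the reproducible list and was not used. The deposited summit offset gave all positions. The reproducible peaks were the 7248 pooled candidates of highest signal.

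Summits were classed with Ensembl release 115 genes on 6 chromosomes as promoter first, then 5′ UTR, coding, 3′ UTR or non-coding RNA exon, then intron and last intergenic. The host is the gene of that exon. Each replicate's 7248 strongest candidates were compared with its remainder, and values over replicates were tested by an exact two-sided sign-flip permutation test. Replicate numbers came from the labels, which name separate biological samples; full lists of replicate pairs had 52.5 to 59.8% of summits within 200 bp of each other, so none was a duplicate. Depth is unknown, and intervals over peaks are Wilson intervals of counting error.

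Named peaks were the 20 of highest pooled signal found in every replicate, every coding-exon peak, the 5 strongest of each other class, hosts in the gene lists and the 5 strongest without a summit in some replicate. Other peaks named were chosen after their values were seen. The members, lists and tests were chosen with earlier results of these data known. Scripts were tested on simulated data and used Python 3.11.15, numpy 2.4.6, pandas 2.3.3, scipy 1.17.1 and matplotlib 3.10.9.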

Additional observations from a re-analysis of the deposited data

How the results depend on the processing

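Of 61 alternatives, 12 added after seeing the data, 12 moved the result, 0 reversed it and 49 did neither. A result with a test counted as reversed where its direction changed and could not count as moved, and its p-value was not used. The 12 that moved were therefore all results without a test. A count moved beyond 1.5 times, a share outside its Wilson interval and the width ratio beyond 1 replicate SD. Values could thus shift by much without counting. The SD of the width ratio was 0, so any change in it counted as moved. All 43 alternatives to the 6 results with a test over replicates kept the direction, but 3 replicates cannot reach a p of 0.05, so this says little about stability. The number of exonic peaks was 294 with a TSS distance of 250 bp, 105 with 1000 bp, 112 with exons of protein-coding genes only 267 with TSSs of protein-coding genes only, and 83 among the peaks in the upper part of the pooled signal. Recovery in all replicates was 92.0% in the full lists and 91.6% for the peaks of higher pooled signal, and leaving out 1 replicate at a time gave 69.5 to 72.2%. Host genes numbered 107 for peaks recovered in all 3 replicates and 95 with a TSS distance of 1000 bp. The share with any of the 3 learned words was 27.3% in 100 bp windows. The ratio of median width to other peaks was 1.06, and 0.970 among peaks of higher pooled signal. The log2 signal ratio was −0.10 without replicate 1, −0.08 with the mean of log2 signal and −0.01 among peaks of higher pooled signal. The difference in GC from flanks was −1.54 points with 400 bp windows, and that from intronic summits 1.71. The X ratio was 0.44 in the shorter strong list. Some of these shifts could go only one way. Recovery can only rise in the full lists or with 1 replicate left out. The share with a word can only fall in shorter windows. Counts of peaks and hosts can only fall with a larger TSS distance or a subset of the peaks. The cause of the other shifts was not tested. No leave-one-out value exists for the number of peaks, hosts, words or widths, which rest on the authors' list. No paired analysis was possible because there is only 1 group. Depth is unknown, and with no second genotype or untagged sample, signal that would arise without the tagged protein was not measured beyond the authors' control.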
